A study of Mus musculus with 4 samples.

Results

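In single-cell data from mouse collecting lymphatics dissected with adjoining tissue, 196 of 23666 cell barcodes (0.828%, exact Clopper-Pearson 95% interval 0.717 to 0.952%) were blood endothelial cells that carried transcripts of Rgcc, a regulator of the cell cycle that is abundant in capillary and arterial endothelium. Members were selected on measured UMI counts. A barcode, the tag that marks the contents of 1 droplet, was taken when it held at least 1 unique molecular identifier (UMI, that is, 1 captured transcript) of Flt1, at least 1 of Ptprb and Cdh5 together and at least 1 of Rgcc, none of Prox1, Ptprc or Pdgfra, and at most 1 of Myh11. The 4 required genes encode a VEGF receptor, an endothelial phosphatase, the adherens junction cadherin of endothelium and RGCC. The genes that had to be absent or scarce mark lymphatic endothelium (Prox1), leukocytes (Ptprc), fibroblasts (Pdgfra) and smooth muscle (Myh11). The 196 are called the Rgcc-positive barcodes here. The study profiled C57BL/6J animals, 4 of each sex, at 12 to 14 weeks of age and with no treatment named. Each animal gave vessels from 4 regions, which were joined, marked with oligonucleotide tags and then mixed with those of the other animals of its sex. The matrix has 8 barcode suffixes that could not be tied to an animal or a sex, so it counts as 1 pooled sample here, with neither a test nor a comparison between sexes. Values by suffix are shown as lowest, median and highest, and stand for unlabelled samples.

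Capillary endothelium exchanges gases, water and nutrients between blood and tissue, and in fat and muscle it also takes up fatty acids. There GPIHBP1 carries lipoprotein lipase to the luminal surface, CD36 and fatty acid-binding proteins move the released fatty acids across the cell, and PPARγ controls many of the genes involved. Arterial endothelium is shaped by VEGF and Notch signalling and by SOX17, whereas postcapillary venules display P-selectin and E-selectin, which capture leukocytes. Around capillaries lie pericytes, contractile support cells that share the vessel's basement membrane.

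Together the 196 barcodes gave 1242675 gene UMIs. The median barcode had 4200 UMIs (range 660 to 32751), 1920 genes and 3.41% mitochondrial UMIs. They were compared with 526 lymphatic endothelial barcodes (Prox1 present; median 8811 UMIs), with 115 Plvap-positive blood endothelial barcodes (not members, with Plvap, the diaphragm gene of fenestrae and caveolae, and without Prox1 or the lymphatic gene Mmrn1; median 7333 UMIs) and with all 23470 other barcodes (median 8818.5 UMIs and 1.30% mitochondrial UMIs). The rule asks for detected transcripts, so depth enters the choice of members, and the lower depth of the Rgcc-positive barcodes stands beside every comparison below. Suffixes held 13 to 52 Rgcc-positive barcodes, which was 0.422 to 1.59% of a suffix (median 0.776%), and 1 suffix held 52 of the 196. Of the filtered barcodes, 88 had a sequence that occurred under 2 suffixes, 1 of them Rgcc-positive. Doublet scoring marked 834 of 23666 barcodes (3.52%) and 1 of the 196, and none was removed. Levels below are CPM, that is, the UMIs of a gene summed over the barcodes of a group and scaled to a total of 1000000 gene UMIs, and ratios are ratios of CPM. Intervals are exact 95% Poisson, binomial or conditional binomial intervals that cover counting error only, not differences between mice.

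The genes of the rule describe the selection and are no result. Rgcc (chr14:79288756-79301645, minus strand, GRCm38) stood at 1547 CPM in the Rgcc-positive barcodes, 19.3 in the lymphatic and 21.3 in the Plvap-positive barcodes. Flt1 (chr5:147561604-147726011, minus strand) stood at 1597, 97.5 and 744 CPM. Of the 196 barcodes, 149 held 3 or more Rgcc UMIs, 22 held 2 and 25 held 1. The barcodes near the threshold differed from the rest. The 25 with 1 Rgcc UMI had Gpihbp1 at 164 CPM and Selp, the P-selectin gene of venules, at 5194, against 1080.5 and 364 CPM in those with 3 or more. Just outside the rule, 102 barcodes with Flt1 but no Rgcc had Gpihbp1 at 60.6 and Selp at 7728 CPM.

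By markers that the rule did not use, the 196 barcodes carried general endothelial genes and were mostly capillary in profile. The members and the gene lists were chosen with earlier results of these data known, so these markers describe the barcodes and are no independent check. Cldn5, the tight junction claudin of endothelium, reached 1407 CPM (95% interval 1341 to 1474), and Esam, an endothelial adhesion molecule, reached 493 CPM. Gpihbp1 or Car4, both genes of capillary endothelium, was detected in 162 of 196 barcodes. Of the arterial list some genes were widely detected, Nrp1 in 169 and Mecom in 129 barcodes, while Gja5, Sema3g and Bmx together gave at least 1 UMI in 35 and at least 2 in 18 barcodes, the arterial connexin gene Gja5 4 UMIs in all. A further set of 16 barcodes held 3 or more Selp UMIs, a venular gene that the label does not name. Markers of most other cell types were scarce. The 6 T and B cell genes summed to 1.61 CPM with Cd3e, Cd3d, Cd79a and Cd79b at 0. The 5 epithelial genes summed to 3.22 with Krt8 and Krt14 at 0. The 13 lymphatic genes were led by Nfatc1, with Reln and Sema3a at 0 and Prox1 at 0 by the rule. The rule thus limits lymphatic genes through Prox1, and T cell, B cell and macrophage genes through Ptprc. The 6 fibroblast genes, limited by the rule through Pdgfra, summed to 697 CPM against 3361 in Plvap-positive and 13694 in all other barcodes, and the 6 macrophage genes to 233 CPM (66.9 to 415 over suffixes) against 125 in lymphatic, 109.8 in Plvap-positive and 3333 in all other barcodes. Of 4 macrophage genes tested 1 was 2-fold higher than in lymphatic and 3 were higher than in Plvap-positive barcodes, where 13.5% and 9.42% of all genes were. The part of the macrophage genes in the results was not tested. Pericyte, adipocyte and, in 3 barcodes, haemoglobin genes were higher too and are described with the results they touch.

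The clearest gene group was the capillary list of 16 genes, chosen with earlier results known, of which 15 remain after Rgcc is set aside. Against lymphatic endothelium 13 of these 15 were at least 2-fold higher and none was 2-fold lower, and against Plvap-positive barcodes 12 were higher and none lower. Among all 7349 genes at 20 CPM or more in either group, 13.5% were 2-fold higher and 10.1% lower against lymphatic barcodes, and among 7433 genes 9.42% were higher and 8.46% lower against Plvap-positive barcodes. The median log2 ratio of the list was 3.24 and 2.28, beside 0.05 and 0.07 over all genes tested. Against all other barcodes 15 of 15 were higher, where 14.3% of 7946 genes were. Without the pericyte-gene and Selp barcodes described below, the counts for 121 barcodes were 12 higher and none lower against lymphatic and 13 higher and 1 lower against Plvap-positive barcodes.

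Gpihbp1 (chr15:75596628-75599481, plus strand), which anchors lipoprotein lipase on the capillary wall, was 541 CPM in the lowest suffix, 873 at the median and 1306 in the highest. Every suffix lay above the lymphatic suffixes (54.6 to 159 CPM) and the Plvap-positive suffixes (0 to 69.4 CPM). The pooled level of 926 CPM gave a ratio of 9.44 (8.60 to 10.4) to lymphatic and 28.5 (19.7 to 42.8) to Plvap-positive barcodes. Car4 (chr11:84957786-84966044, plus strand), a carbonic anhydrase on the surface of capillary endothelium, was 135 CPM in the lowest suffix, 262 at the median and 379 in the highest, and 0 to 2.09 CPM in the lymphatic and 0 to 13.9 CPM in the Plvap-positive suffixes. The suffixes of the groups did not overlap, and the ratio to Plvap-positive barcodes was 79.5 (27.0 to 387), with 3 UMIs behind the lower value. How many of all genes had suffix ranges without overlap is not given. Overlap, here and below, therefore describes each gene alone and does not show that it is unusual. Most barcodes carried these genes: a Gpihbp1 UMI was found in 156 of 196 barcodes (79.6%, 73.3 to 85.0%) and a Car4 UMI in 105 of 196 barcodes (53.6%, 46.3 to 60.7%). With each barcode thinned to 1000 UMIs, which left out 3 shallow barcodes, these shares were 55.4% and 23.8%. Among 311 B cell barcodes (median 5115 UMIs), a cell type that should lack both genes, 1 held a Gpihbp1 UMI and none held Car4, which allows a share of up to 1.18%.

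Fabp4 (chr3:10204088-10208576, minus strand), a fatty acid-binding protein gene of adipocytes and capillary endothelium, was 12501 CPM in the lowest suffix, 25410.3 at the median and 32931 in the highest. In all 8 suffixes it exceeded the highest lymphatic (5243 CPM) and the highest Plvap-positive suffix (10793 CPM), with pooled ratios of 6.93 (6.82 to 7.05) and 2.87 (2.80 to 2.95). Cd36, the fatty acid translocase gene, stood at 1700.4 CPM against 160.5 and 444. Rbp7, which encodes a retinol-binding protein, stood at 616 against 14.7 and 39.2 CPM, and Timp4, an inhibitor of matrix metalloproteinases, at 408 against 3.75 and 24.6 CPM. For the transcription factor gene Tcf15, which pairs with Meox2 in the endothelium of heart, muscle and fat, the levels were 384, 15.02 and 22.4 CPM, with no overlap between suffixes of the Rgcc-positive (197 to 439) and Plvap-positive groups (0 to 77.6). These genes were higher than in both other endothelial groups. A few capillary-list genes were not. Btnl9 (butyrophilin-like) was close to its lymphatic level (189.9 against 177 CPM, ratio 1.07, 0.9303 to 1.23) and higher only against Plvap-positive barcodes, where it stood at 5.60 CPM. The water channel gene Aqp1 and Meox2 were 2-fold higher than in lymphatic barcodes and within 2-fold of Plvap-positive barcodes, with ratios of 0.582 (0.540 to 0.627) and 0.613 (0.517 to 0.727).

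**Figure D1:**
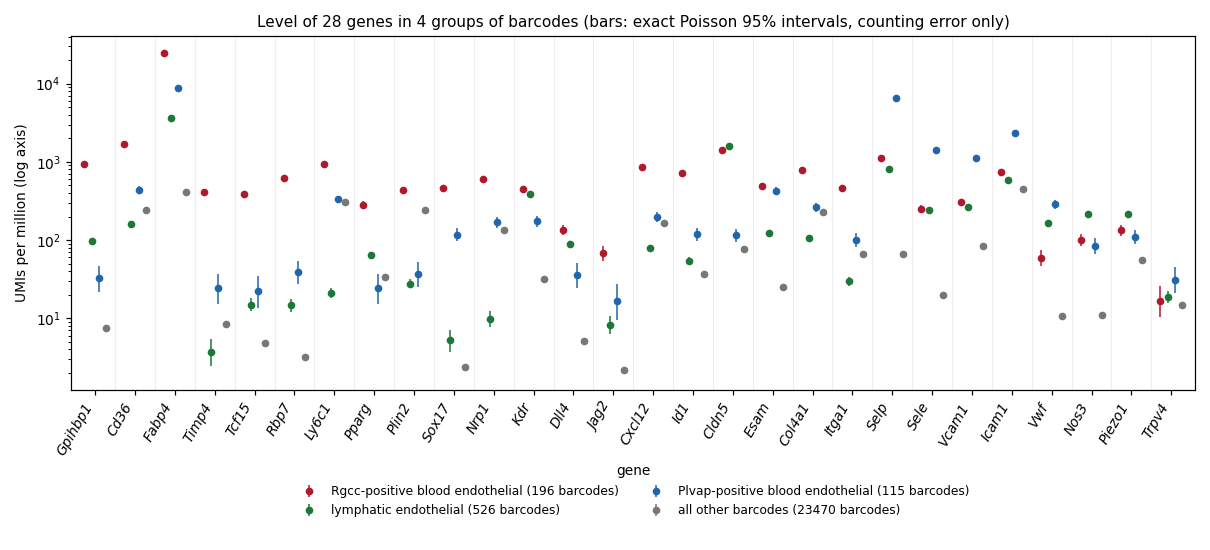
Level of 28 genes, in CPM on a log axis, in the Rgcc-positive blood endothelial (red), lymphatic endothelial (green), Plvap-positive blood endothelial (blue) and all other barcodes (grey). Bars are exact Poisson 95% intervals. The capillary and lipid genes on the left are highest in the Rgcc-positive barcodes, and Selp, Sele, Vcam1 and Icam1 are highest in the Plvap-positive barcodes.

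Promoters are shown for 3 of the capillary-list genes because these genes were high together and separated the Rgcc-positive from the Plvap-positive barcodes. RefSeq windows (build GRCm38.p6) from 250 bases before to 50 after the start were found for 11 of the 16 genes, 13 windows in all. They were searched on both strands for CAGGAAG, an ETS-type motif that endothelial ETS factors such as ERG can bind. Capitals mark a match on either strand. The windows are those of Timp4 (chr6:115252156-115252455, minus strand), Btnl9 (chr11:49187040-49187339, minus strand) and Car4 (chr11:84957504-84957803, plus strand), each written 5′ to 3′ on the gene's strand.
Timp4: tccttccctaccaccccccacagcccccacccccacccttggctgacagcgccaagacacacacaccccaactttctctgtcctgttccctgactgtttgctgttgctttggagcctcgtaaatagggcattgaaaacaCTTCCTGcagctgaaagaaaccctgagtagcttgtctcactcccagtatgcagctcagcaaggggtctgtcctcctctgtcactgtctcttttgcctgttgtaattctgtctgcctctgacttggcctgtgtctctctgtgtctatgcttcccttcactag
Btnl9: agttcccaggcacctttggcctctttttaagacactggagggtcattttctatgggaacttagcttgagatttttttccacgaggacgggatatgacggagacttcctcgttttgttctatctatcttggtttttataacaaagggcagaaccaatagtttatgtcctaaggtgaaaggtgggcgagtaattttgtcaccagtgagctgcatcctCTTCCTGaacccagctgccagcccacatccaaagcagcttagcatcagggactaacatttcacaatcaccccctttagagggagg
Car4: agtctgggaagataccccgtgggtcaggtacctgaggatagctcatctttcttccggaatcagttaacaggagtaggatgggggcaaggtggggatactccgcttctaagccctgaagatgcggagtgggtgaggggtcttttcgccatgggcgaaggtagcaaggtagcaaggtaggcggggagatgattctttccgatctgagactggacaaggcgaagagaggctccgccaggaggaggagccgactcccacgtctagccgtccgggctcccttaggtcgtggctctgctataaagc
Timp4 and Btnl9 each held 1 match and were the 2 of 13 windows with any. Over all 32851 windows of this length 4359 (13.3%) held the motif. The Car4 window held no match to CAGGAAG. Other ETS-type motifs were not searched for, so a window without a match may still hold an ETS site. Nothing was measured about binding at any window.

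Genes of fatty acid uptake and storage went with the capillary genes. Of the lipid list, 12 of 16 tested genes were 2-fold higher and 2 lower against lymphatic barcodes (median log2 ratio 2.20). There 13.5% of all genes were higher and 10.1% lower. Against Plvap-positive barcodes 9 of 15 were higher and none lower (1.52), where 9.42% and 8.46% of all genes were. Gpihbp1, Cd36, Fabp4 and Fabp5 stand in both lists. Of the other genes, Pparg, which encodes the nuclear receptor of lipid storage, was 151 CPM in the lowest suffix, 305 at the median and 379 in the highest. All 8 values exceeded the lymphatic (55.5 to 103 CPM) and Plvap-positive suffixes (0 to 56.2 CPM), with ratios of 4.38 (3.81 to 5.03) and 11.5 (7.49 to 18.6). Plin2, which coats lipid droplets, stood at 443 CPM against 27.9 and 37.0, and Angptl4, an inhibitor of lipoprotein lipase, at 352 against 66.6 and 52.7. Lpl itself, whose product is made by parenchymal cells and carried to the capillary, stood at 340.4 CPM, which was 5.06 (3.86 to 6.75) times the Plvap-positive level and close to the 368 CPM of all other barcodes. The high-density lipoprotein receptor gene Scarb1 and the lipase gene Lipe were 12.1 and 12.8 times their lymphatic level and less than 2-fold from Plvap-positive barcodes (0.955 and 1.47).

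Adipocyte transcripts were present beside these genes. Adipoq, Plin1, Cidec and Retn, which mark adipocytes, summed to 319 CPM (114 to 632 over suffixes) against 5.63 in lymphatic, 31.4 in Plvap-positive and 18.6 in all other barcodes. Of the 4 genes none was at 0 in the Rgcc-positive barcodes. At least 3 adipocyte UMIs were found in 51 barcodes, 50 of which also held Gpihbp1 or Car4. Cfd and Car3, further genes abundant in fat, were among the 12 largest ratios against lymphatic barcodes, at 993 and 787 CPM. Their part in the levels of Fabp4, Pparg, Plin2 and Lpl was not tested.

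**Figure D2:**
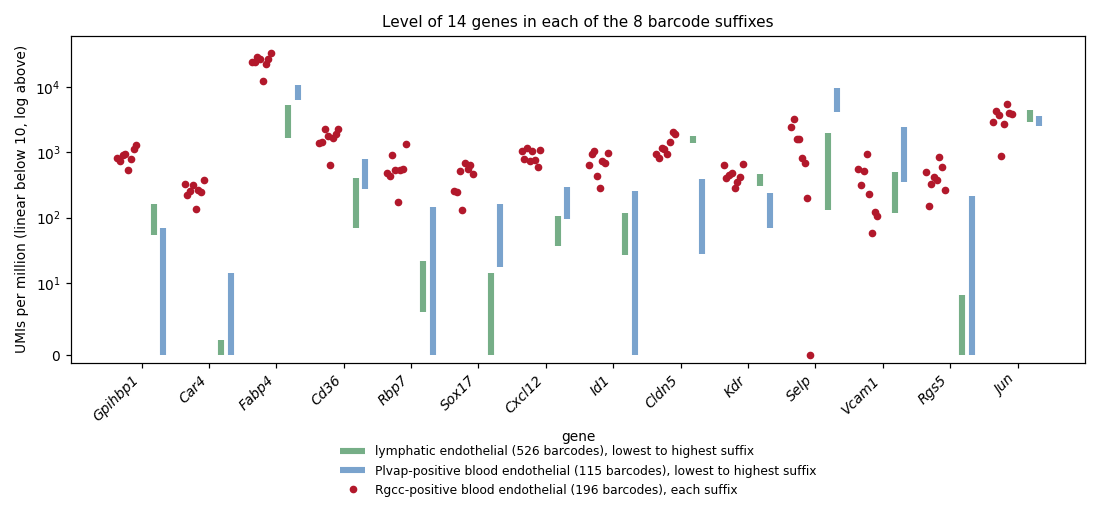
Level of 14 genes, in CPM (linear below 10, log above), in each of the 8 barcode suffixes for the Rgcc-positive barcodes (red points) and from the lowest to the highest suffix for lymphatic (green bar) and Plvap-positive barcodes (blue bar). Gpihbp1, Car4 and Fabp4 do not overlap with either group, whereas Selp and Vcam1 spread widely among the red points, from 0 to 3205 CPM for Selp.

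Arterial genes gave a mixed picture. Of the arterial list, 12 of 24 tested genes were 2-fold higher and 6 lower than in lymphatic endothelium, where 13.5% and 10.1% of all genes were. Against Plvap-positive barcodes 10 of 25 were higher and 4 lower, where 9.42% and 8.46% of all genes were. The median log2 ratios of the list were 0.99 and 0.56. Sox17, a transcription factor of arterial identity, was 131 CPM in the lowest suffix, 489.7 at the median and 684 in the highest. The lymphatic suffixes (0 to 14.1 CPM) lay below all of these, and the Plvap-positive suffixes (17.3 to 160.1 CPM) overlapped with the lowest. The ratios were 89.6 (64.7 to 127) and 3.98 (3.23 to 4.95). Cxcl12, a chemokine gene of arterial and capillary endothelium, stood at 856 CPM against 79.2 and 196, and Nrp1, a VEGF co-receptor of blood vessels, at 606 against 9.79 and 169. These 3 genes were broadly detected, Sox17 in 129, Cxcl12 in 155 and Nrp1 in 169 of 196 barcodes. Genes of larger arteries were detected in few. Sema3g (chr14:31217860-31230352, plus strand), a semaphorin gene of arterial endothelium, gave 76 UMIs in 31 barcodes, Stmn2 140 UMIs in 31 and Vegfc 57 UMIs in 20. Gkn3, Mgp, Eln and Clu, which are abundant in arterial walls or endothelium, were lower than in Plvap-positive barcodes, for instance Mgp at 157 against 1633 CPM (ratio 0.0961, 0.0823 to 0.112). Over suffixes Mgp was 30.4 to 469 against 267 to 5864 CPM, which overlapped, as did the ranges of Gkn3, Eln and Clu. Fibroblast genes were higher in the Plvap-positive barcodes too, and their part in these values was not tested.

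Within the VEGF, Notch and angiopoietin list 10 of 24 genes were 2-fold higher and 4 lower against lymphatic barcodes, where 13.5% and 10.1% of all genes were. Against Plvap-positive barcodes 11 of 22 were higher and 1 lower, where 9.42% and 8.46% of all genes were. Among receptors, the principal VEGF receptor gene Kdr stood at 449.8 CPM, near the lymphatic 385 and 2.59 (2.16 to 3.12) times the Plvap-positive 174 CPM. Flt4, the receptor of lymphatic growth, was at 26.6 against 360.4 CPM in lymphatic barcodes. Notch4, the endothelial Notch receptor, stood at 68.4 CPM against 2.82 and 3.36, and was 45.3 to 84.4 CPM over its suffixes against 1.48 to 5.22 and 0 to 15.5, with no overlap. Of the Notch ligands, Dll4 was 3.79 (2.59 to 5.72) and Jag2 4.02 (2.31 to 7.50) times the Plvap-positive level, and Dll1 was lower in both comparisons. The Notch target Hey1 stood at 50.7 against 19.4 and 3.36 CPM. Apln, the apelin ligand gene of sprouting endothelium, gave 49 UMIs in 11 barcodes, 67.3% of them in 3 barcodes. Its receptor Aplnr stood at 82.9 CPM against 1.61 in lymphatic and 63.9 in Plvap-positive barcodes. Notch3 and Heyl, counted among the higher genes, are known from mural cells. Notch3 is 1 of the 8 pericyte genes by whose summed UMIs barcodes are split below. Heyl, which is not, was at 0 in the 135 barcodes with fewer than 3 pericyte UMIs and at 51.7 CPM in the other 61.

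In the BMP and TGFβ list 6 of 18 genes were higher and 4 lower against lymphatic barcodes, where 13.5% and 10.1% of all genes were. Against Plvap-positive barcodes 4 of 18 were higher and 1 lower, where 9.42% and 8.46% of all genes were. Id1, an early target of BMP receptors, was 286 CPM in the lowest suffix, 707 at the median and 1041 in the highest. No suffix of the lymphatic (26.3 to 115 CPM) or Plvap-positive group (0 to 253 CPM) reached the lowest of these values, and the ratios were 13.1 (11.6 to 14.8) and 5.98 (4.89 to 7.38). The ligand gene Bmp6 stood at 158 CPM against 41.0 and 23.5, and Bmp4, lower in both comparisons, at 17.7 against 114 and 95.2. The inhibitory Smad6 was 14.2 and Smad7 3.08 times the lymphatic level, whereas Smad1, which carries the BMP signal, and Tgfbr2, a TGFβ receptor, were lower at 0.376 and 0.316 times.

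Junction and matrix genes separated the groups unevenly. Cldn5 was 809 CPM in the lowest suffix, 1139.9 at the median and 2017 in the highest, which overlapped with the lymphatic suffixes (1406 to 1787 CPM) and lay wholly above the Plvap-positive suffixes (28.1 to 388 CPM; ratio 12.2, 9.99 to 15.02). Esam was 4.06 (3.66 to 4.50) times its lymphatic level and close to its Plvap-positive level. In the basement membrane list 9 of 19 genes were higher and 3 lower against lymphatic barcodes, where 13.5% and 10.1% of all genes were. Against Plvap-positive barcodes 4 of 18 were higher and 2 lower, where 9.42% and 8.46% of all genes were. The collagen IV chains Col4a1 and Col4a2 stood at 798 and 657 CPM, which was 7.55 and 8.07 times the lymphatic and 3.05 and 2.98 times the Plvap-positive level. Itga1, an integrin that binds collagen IV, was 15.5 (13.2 to 18.1) and 4.61 (3.68 to 5.82) times. Pericytes also make collagen IV. In the 135 barcodes with fewer than 3 pericyte UMIs Col4a1 was 657 and Itga1 352 CPM, and in the Plvap-positive barcodes, which were not filtered in this way, 262 and 101 CPM. Lama4, a laminin chain of endothelium, was lower than in lymphatic barcodes (ratio 0.432, 0.376 to 0.493) and higher than in Plvap-positive ones (ratio 2.34, 1.78 to 3.09).

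Among transcription factors, 9 of 28 genes were higher and 6 lower against lymphatic barcodes, where 13.5% and 10.1% of all genes were. Against Plvap-positive barcodes 4 of 28 were higher and 2 lower, near the 9.42% and 8.46% of all genes. Besides Sox17, Tcf15 and Pparg, the hypoxia-inducible factor gene Epas1 stood at 582 CPM against 88.0 in lymphatic barcodes, and Mecom, a factor of arterial and capillary endothelium, at 477 against 44.0. Nr2f2, which specifies venous and lymphatic endothelium, was lower in both comparisons, at 153 against 491 and 375 CPM, and so was Foxc1 at 24.1 against 140.0 and 96.3 CPM. Over their suffixes Nr2f2 was 112 to 279 CPM, below the lymphatic range of 435 to 561 and overlapping with the Plvap-positive range of 194 to 599. The flow-responsive Klf2 was the most abundant of the list at 3899 CPM and lay within 2-fold of both groups.

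Trpv4 (chr5:114622152-114658421, minus strand), the channel gene of the study's title, was rare in these barcodes. It gave 21 UMIs in 14 of 196 barcodes (7.14%, 3.96 to 11.7%), which is 16.9 CPM (95% interval 10.5 to 25.8), and was 0, 14.0 and 53.2 CPM in the lowest, median and highest suffix. The lymphatic level was 18.9 and the Plvap-positive level 31.4 CPM, with ratios of 0.894 (0.537 to 1.42) and 0.539 (0.291 to 0.983), and the suffix ranges overlapped. In the other groups a Trpv4 UMI was found in 107 of 526 lymphatic and 23 of 115 Plvap-positive barcodes, which were deeper. Thinned to 1000 UMIs, 1.55% of Rgcc-positive, 1.53% of lymphatic and 5.41% of Plvap-positive barcodes held a Trpv4 UMI. Each of these shares came from a single random draw. B cell barcodes gave 1.65 CPM, with a UMI in 4 of 311 and, when thinned, in 0. Genes of vessel tone and calcium entry were as often lower as higher than in lymphatic endothelium (8 of 27 each way). Without the pericyte-gene barcodes described below 5 of 25 were higher and 7 lower. Of all genes 13.5% were higher and 10.1% lower with those barcodes, and 13% and 11.3% without them. Against Plvap-positive barcodes 7 of 27 were higher and 4 lower, where 9.42% and 8.46% of all genes were. Chrm3, the muscarinic receptor through which acetylcholine relaxes vessels, was lower, at 32.2 CPM against 660.0 in lymphatic barcodes, and 3.38 to 84.3 against 485 to 747 over suffixes, with no overlap. Nos3, endothelial nitric oxide synthase, was lower, at 99.8 against 213 CPM (ratio 0.469, 0.387 to 0.563), and less than 2-fold lower without the pericyte-gene barcodes (log2 ratio -0.70), without 1 of the suffixes (-0.94) or by the mean over barcodes (-0.82). The endothelin system genes Edn1 and Ece1 were lower at 0.400 and 0.400 times. Ednrb, the endothelin B receptor gene, matched the lymphatic level (265 against 269 CPM) and was 19.7 (11.1 to 38.5) times the Plvap-positive one. The prostaglandin receptor gene Ptger4 was 3.79 (3.00 to 4.77) and 8.84 (4.65 to 18.9) times. The channel genes Trpc6, Kcnj8 and Abcc9 were higher too. Kcnj8 and Abcc9 are among the 8 pericyte genes of the split below, and Trpc6, which is not, was at 65.0 CPM in the 61 barcodes with 3 or more pericyte UMIs and 1.56 in the other 135.

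Of the haemostatic genes 6 of 11 were lower and 2 higher against lymphatic barcodes, where 10.1% and 13.5% of all genes were. Against Plvap-positive barcodes 4 of 10 were lower and 1 higher, where 8.46% and 9.42% of all genes were. Plat, tissue plasminogen activator, was lower, at 53.1 against 1546 CPM, and Vwf, which tethers platelets, at 59.5 against 168 in lymphatic and 286 in Plvap-positive barcodes. The tested genes of antigen presentation lay within 2-fold of both groups except Tap1, which was 2.09 (1.50 to 2.88) times its lymphatic level. The interferon-induced chemokine gene Cxcl9 stood at 79.7 CPM (15.9 to 128 over suffixes) against 1.21 and 6.72. Ly6a and Ly6c1, surface genes of blood endothelium that many other cells also express, were 17.4 and 44.8 times the lymphatic level. The immediate early genes, which respond to dissociation, summed to 24587 CPM (8215 to 33766 over suffixes), 22567 in lymphatic, 24475 in Plvap-positive and 28274 in all other barcodes, and their part in the other differences was not tested. Among them Hspa1a was 11.7 (10.0 to 13.8) and 4.09 (3.22 to 5.24) times the levels of the compared groups, and Socs3 was lower at 0.335 (0.307 to 0.365) times the lymphatic level.

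**Figure D3:**
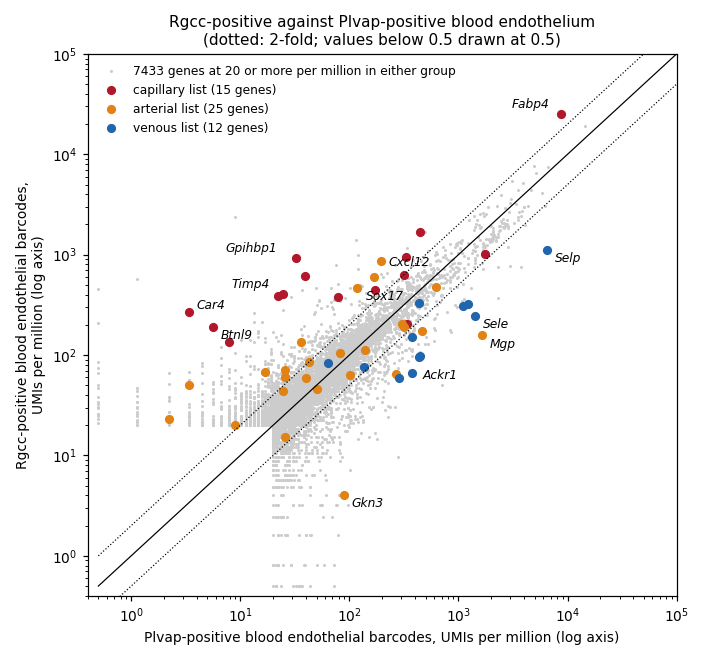
Each point is a gene at 20 CPM or more in either group, plotted as its level in the Plvap-positive (x axis) and the Rgcc-positive barcodes (y axis), both on log axes. Solid and dotted lines mark equality and 2-fold. Of the capillary list (red) 12 of 15 genes lie above the upper dotted line, of the venous list (blue) 9 of 12 lie below the lower one, and the arterial list (orange) has genes on both sides. Among all 7433 genes tested 9.42% were 2-fold higher and 8.46% lower.

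Venous genes were lower than in Plvap-positive barcodes, with 9 of 12 lower, none higher and a median log2 ratio of -2.05. There 8.46% of all genes were lower and 9.42% higher. Against lymphatic barcodes 6 of 13 were lower and 2 higher, where 10.1% and 13.5% of all genes were. The lymphatic comparison changed with the barcodes kept. Without the pericyte-gene barcodes it was 2 lower and 3 higher, where 11.3% and 13% of all genes were. Without the Selp barcodes described next it was 11 lower and 1 higher, where 10.7% and 14.8% of all genes were. The Plvap-positive comparison stayed at 9 lower and none higher in both, where 9.66% and 9.69% of all genes were lower. Barcodes with Plvap that also passed the rule were counted as members, so the choice of groups sets part of this comparison. Selp (chr1:164115264-164150026, plus strand) was 0 CPM in the lowest suffix, 1198 at the median and 3205 in the highest, and all of these lay below the Plvap-positive suffixes (4196 to 9659.7 CPM). The pooled ratio was 0.173 (0.163 to 0.184). Sele, E-selectin, stood at 248 against 1418 CPM, Vcam1 at 306 against 1109 and Ackr1, the chemokine-binding receptor of venules, at 66.0 against 375. These transcripts came from few of the 196 barcodes. Selp gave 1393 UMIs in 19 barcodes, and the 10 highest held 91.2% of them. Sele was found in 16, Vcam1 in 26 and Ackr1 in 12 barcodes.

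The 16 barcodes with 3 or more Selp UMIs (median 10414.5 UMIs, 0 to 6 per suffix) were set apart after the values had been seen, and are described without any claim of a separate cell type. Against the other 180, 9 of 12 venous genes were higher and none lower (median log2 ratio 4.83), and 11 of 15 capillary genes were lower and 1 higher. Over all 7563 genes tested 10.2% were higher and 19.9% lower, with a median log2 ratio of -0.22. Sele stood at 1559 against 2.87 CPM (3 UMIs in the latter), Vcam1 at 1789 against 28.7, Vwf at 348 against 5.73 and Lrg1, a secreted glycoprotein gene of venules, at 1764 against 51.6. Ackr1 stood at 419 CPM against 0 UMIs, which is at least 146-fold higher with a floor of 3 UMIs over the group. Mctp1, a calcium-binding membrane protein gene, reached 4534 against 53.5 CPM. In the other direction Cldn5 was at 46.0 against 1661 CPM and Timp4 at 20.4 against 480.4. These 16 barcodes differed from the rest in both venous and capillary genes, and 8 of the 25 barcodes with a single Rgcc UMI held Selp.

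**Figure D4:**
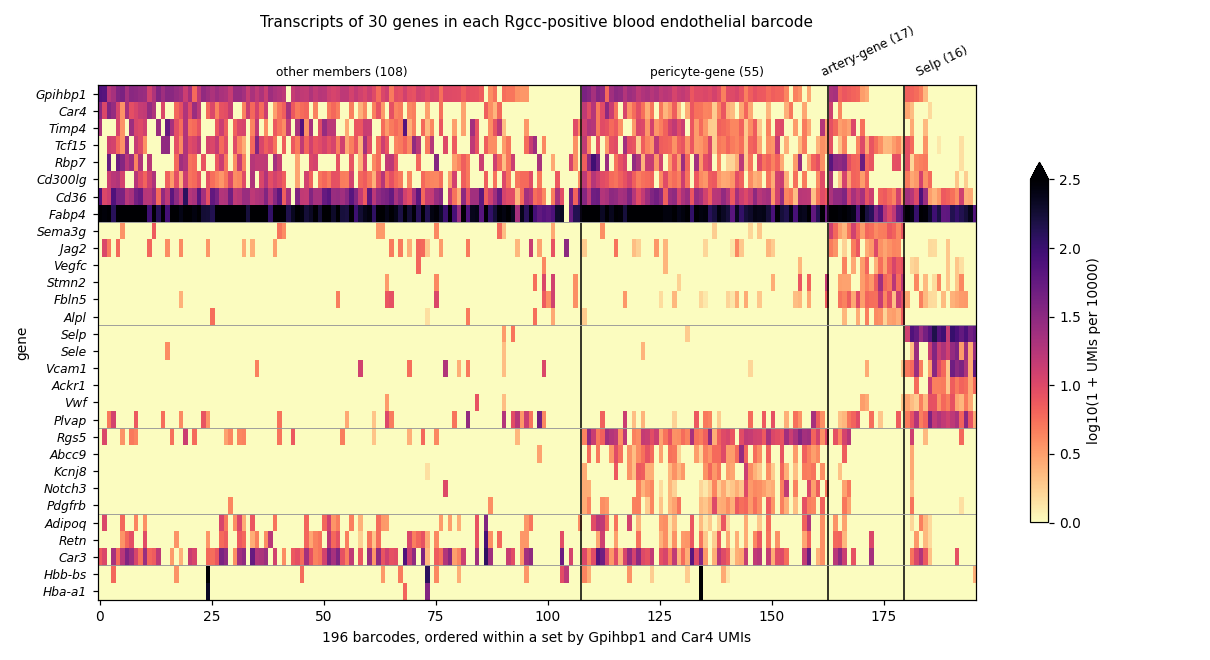
Transcripts of 30 genes (rows) in each of the 196 Rgcc-positive barcodes (columns), as log10 of 1 plus UMIs per 10000 from 0 (pale) to 2.5 or more (black). Columns are split into Selp barcodes (16), the artery-gene barcodes not among them (17), the pericyte-gene barcodes not among either (55) and all others (108). Capillary genes fill the left and centre, arterial, venous and pericyte genes stand in their own blocks, and 3 columns are dark for Hbb-bs.

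Barcodes that held Gpihbp1 or Car4 (162, median 4020.5 UMIs, 8 to 43 per suffix) were also compared with the 34 that held neither (median 6155 UMIs), a split likewise chosen after the values had been seen. Of the other 13 capillary genes tested, 10 were higher and none lower, of 14 lipid genes 10 were higher and 2 lower, and of 13 venous genes 10 were lower, where 13.8% of all 7361 genes were higher and 9.44% lower. Bmp6 stood at 199.8 against 3.75 CPM (1 UMI) and Angptl4 at 442 against 22.5. Icam1, the adhesion molecule of activated endothelium, was 479 against 1754 CPM, and Vcam1 73.8 against 1154. Trpv4 stood at 5.12 CPM (5 UMIs) in the 162 and 59.97 CPM (16 UMIs) in the 34, and pericyte genes moved the same way as capillary genes, with Rgs5 at 564 against 105 CPM.

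The 18 artery-gene barcodes (median 6432.5 UMIs, against 4014.5 in the other 178; 0 to 3 per suffix) held at least 2 UMIs summed over Gja5, Sema3g and Bmx, so that these genes describe the choice. The sum is a cut along a range and no cell type, and 9 of the 18 also held Gpihbp1 or Car4. Of 22 other arterial genes tested 13 were higher and 1 lower than in the 178 others (median log2 ratio 1.67, over all 7390 genes 0.02), where 11.1% of all genes were higher and 12.8% lower. Of 15 capillary genes 8 were lower and none higher, and of 15 lipid genes 7 were lower and 1 higher. Vegfc, a growth factor gene for lymphatic vessels that arterial endothelium also makes, stood at 290.2 CPM (48 UMIs) against 8.35 (9 UMIs), a ratio of 34.7 (16.9 to 80.5). Stmn2 stood at 574 against 41.8 CPM, Fbln5, an organiser of elastic fibres, at 447 against 52.0, and Edn1, the gene of the constrictor endothelin 1, at 272 against 30.6. Few barcodes carried much of these counts: 3 of the 196 held 43.9% of the Vegfc, 39.7% of the Edn1 and 37.9% of the Stmn2 UMIs. The gap junction gene Gja4 and the Notch genes Hey1 and Jag2 were 4.83, 4.01 and 4.01 times. Nebl, an actin-binding protein gene that stands in no list, had the largest ratio, at 423 against 11.1 CPM.

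Of 28 vessel tone genes 10 were higher and 6 lower in the 18 artery-gene barcodes, where 11.1% and 12.8% of all genes were. Nos3 was 2.99 (1.99 to 4.41) times (log2 ratio 1.58, and 0.92 by the mean over barcodes) and Chrm3 17.2 (8.33 to 38.1) times the level of the others. Trpv4 stood at 66.5 CPM (95% interval 33.2 to 119) in the 18 against 9.28 CPM (95% interval 4.45 to 17.1) in the 178, on 11 and 10 UMIs, and was found in 5 of 18 barcodes (27.8%, 9.69 to 53.5%) and in 9 of 178 barcodes (5.06%, 2.34 to 9.38%). Thinned to 1000 UMIs 1 of 175 others held a Trpv4 UMI and none of the 18, which allows a share of up to 18.5%. These random draws were separate from the draw for the Rgcc-positive barcodes as a whole, so the thinned counts need not add up. The 18 then held 18000 UMIs in all, where 1 UMI is 55.6 CPM. That is too few for the thinned shares to show or exclude the difference. The flow-responsive Klf4 was 2.80 times, while Car4 and Gpihbp1 stood at 36.3 and 236 CPM against 303 and 1032. Rbp7 was not lower, at 1.63 (1.35 to 1.95) times. Cxcl12 and Sox17, arterial-list genes that were high in the Rgcc-positive barcodes as a whole, were 1.01 (0.842 to 1.21) and 1.89 (1.55 to 2.30) times, and neither was past 2-fold.

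**Figure D5:**
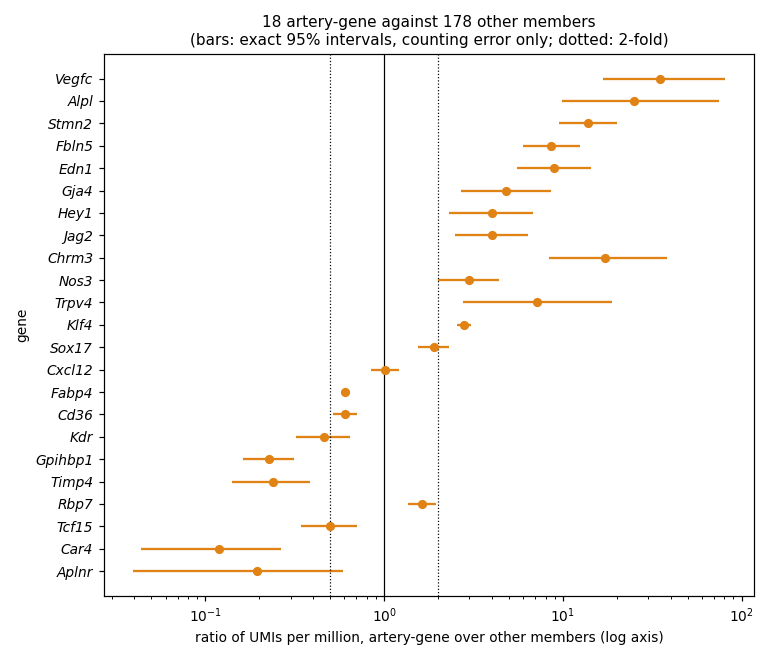
Ratio of CPM (log axis) of 23 genes between the 18 artery-gene barcodes and the other 178 Rgcc-positive barcodes. Points are ratios, bars exact 95% intervals, the solid line equality and dotted lines 2-fold. Arterial genes lie to the right, led by Vegfc at 34.7, Cxcl12 lies at equality, and most capillary genes lie to the left.

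Pericyte transcripts were spread over many of the 196 barcodes. Pdgfrb, Rgs5, Kcnj8, Abcc9, Cspg4, Notch3, Vtn and Higd1b summed to 985 CPM in the Rgcc-positive barcodes (441 to 1496 over suffixes), 21.99 in lymphatic, 159 in Plvap-positive and 183 in all other barcodes. None of the 8 was at 0. The 1224 UMIs lay in 87 barcodes, and 61 barcodes (3 to 23 per suffix, median 6973 UMIs) held 3 or more. In these 61 the sum was 1985 CPM (1501 to 2654 over suffixes), and in 621 barcodes with 10 or more pericyte UMIs and no Flt1, Ptprb or Cdh5 it was 1710.1. In the other 135 it was 51.3 CPM. All 3 sets were cut on the summed UMIs of these 8 genes, so that these sums describe the choice. The smooth muscle list, which the rule limits through Myh11, summed to 406 CPM with 1 UMI of Cnn1 in the Rgcc-positive barcodes. In the 621 barcodes it summed to 21909 CPM. The 621 had no limit on Myh11, so their 1710.1 CPM is not a level of pericytes alone. Rgs5 (chr1:169655501-169695813, plus strand), a regulator of G protein signalling in pericytes, gave 578 of the 1224 UMIs. Doublet scoring marked 0 of the 61.

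The 61 pericyte-gene barcodes and the other 135 (median 3397 UMIs) had similar capillary genes but differed in arterial and venous genes, in a split made after the values had been seen. Over all 7465 genes 8.96% were higher and 5.99% lower. Of 15 capillary genes none was higher and 1 lower, of 27 general endothelial genes none was higher and 1 lower, of 24 arterial genes 1 was higher and 11 lower, and of 13 venous genes none was higher and 8 lower. Beside the list and haemoglobin, the largest ratios included those of Kcnq5, a potassium channel gene (302 against 3.11 CPM, 2 UMIs in the latter), Cacna1c, the L-type calcium channel gene of contractile cells (262 against 4.67 CPM, 3 UMIs), and Steap4, a metalloreductase gene of mural cells (233 against 6.22 CPM, 4 UMIs). Gpihbp1 stood at 1063 CPM in the 61 and 798 in the 135, both above every Plvap-positive suffix. Without the 61, 13 of 15 capillary genes were higher and none lower in both endothelial comparisons.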

How the data were processed

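Single-cell suspensions of 8 mice were measured by droplet RNA sequencing. The deposited matrix holds raw UMI counts per gene and barcode, which the authors made with Cell Ranger 7.1.0, per its header. Seurat 4.3.0.1 and mm10 appear in the submitters' processing notes, and Seurat's role and the annotation are not given in the sources used here. It holds 24046 barcodes, 32285 genes, 12 oligonucleotide tags and 232753017 gene UMIs. The cell filter (500 or more gene UMIs, 300 or more genes, mitochondrial share below 15%) left out 380. The members and gene lists were chosen with earlier results of these data known.

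UMIs were summed per group and scaled to CPM (Python 3.11.15, numpy 2.4.6, scipy 1.17.1, pandas 2.3.3). A gene counted as higher or lower at 2-fold among genes at 20 CPM or more in either group, rule genes left out. A group at 0 was set to a floor of 3 UMIs. No test was made, because 1 pooled matrix gives no replicates. Named genes were the highest of each list, those past 2-fold against either endothelial group, Trpv4, and per comparison the 12 highest and 12 lowest ratios (5 CPM added, 50 CPM or more in either group). Doublets were scored with Scrublet in scanpy 1.11.5 (2 simulated per barcode, expected rate 6%) and kept. Barcodes were thinned at random to 1000 UMIs for shares at equal depth, with a separate single draw for each group. The counting of folds was tested on simulated data. Gene positions are from GENCODE M21 on GRCm38. Splits by Selp, Gpihbp1 with Car4, pericyte and haemoglobin UMIs were added after seeing the data.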

Additional observations from a re-analysis of the deposited data

How the results depend on the processing

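Counts of genes past 2-fold moved with thinning and with the minimum level. With barcodes thinned to 1000 UMIs, 1505 genes were higher and 1189 lower against lymphatic and 1458 and 1157 against Plvap-positive barcodes. Of these, 773 and 599, and 402 and 389, were among the genes called without thinning. Thinning equalises depth, weights barcodes equally and lowers group totals at once, so these parts cannot be told apart. In the artery-gene barcodes the thinned counts of 2057 higher and 331 lower carry no weight. There 18000 UMIs remained and 1 UMI was 55.6 CPM, 1085 of the 2057 genes rested on 1 UMI, and 430 and 78 genes were shared with the unthinned calls. With a minimum of 50 CPM the counts were 555 higher against lymphatic, 342 higher and 325 lower against Plvap-positive, 747 and 786 against all other barcodes, and 370 and 394 in the artery-gene barcodes. With no minimum beyond 3 UMIs they were 2940 and 1438, 1771 and 1538, and 3133 and 2862 in the first 3 comparisons, and 1363 higher in the artery-gene barcodes. Defining artery-gene barcodes by at least 1 UMI gave 618 lower genes, and by at least 4 UMIs 1538 higher genes. TMM scaling moved log2 ratios down by 0.16, 0.038, 0.16 and 0.10 in these 4 comparisons. Leaving out each suffix in turn moved the Rgcc-positive share from 0.706% to 0.892%.

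Of 99 named gene ratios past 2-fold, 90 stayed past it under every alternative run, and all but 2 of their 2184 alternative values kept their direction. Against lymphatic barcodes Nos3 and Plvap fell under 2-fold, with log2 ratios as near to 0 as -0.70 and -0.47 without the pericyte-gene barcodes, an alternative chosen after seeing the data. Against Plvap-positive barcodes Icam1 (-0.94) and Entpd1 (-0.998) did so in that setting, and Rgs5 turned from 2.79 to -0.79. Rgs5 is a gene by which those barcodes were removed, and the Plvap-positive barcodes were not filtered alike, so that this value follows from the removal. In the artery-gene barcodes Kdr reached -0.51 and Klf4 0.9999 when thinned, and Nos3 0.92 by the mean over barcodes. Aplnr is listed there at 0.70 when thinned only because its 0 UMIs were set to the floor of 3 UMIs (167 CPM, against 103 CPM in the others), so that this is no change of direction. No paired analysis was possible because no test was made and no label ties a suffix to an animal, and suffixes were used only to give ranges and to count directions.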

Other observations

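Haemoglobin transcripts lay mostly in 3 of the 196 barcodes. The 4 haemoglobin genes gave 4496 UMIs in 26 barcodes, and 3 barcodes held 99.4% of them. With Alas2 they summed to 3619.6 CPM. By suffix the sum ran from 7.60 to 25327 CPM with a median of 40.2, so that the large ratios of Hbb-bs and Hba-a1 (522 and 304 against lymphatic barcodes) rest on few barcodes.

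Transcripts of cell division also lay in few of the 196 barcodes. Mki67 gave 35 UMIs in 5 and Top2a 41 UMIs in 9 barcodes, with 82.9% of either in 3 barcodes, and 4 barcodes held 3 or more UMIs of the 2 genes together. All 4 held Gpihbp1 or Car4, and 3 of them also held 3 or more pericyte UMIs (median 25248 UMIs).

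Several genes not described above were far higher than in all other barcodes. Adgrl4, an adhesion receptor gene of angiogenic endothelium, stood at 646 against 4.85 CPM, Depp1, a FOXO target, at 523 against 7.60, the transcription factor gene Dach1 at 324 against 3.73, and C1qtnf9 at 222 against 1.96 CPM. Thrsp, a gene of lipogenic tissue, stood at 375 against 6.32 CPM. All 5 were higher than in all other barcodes in 8 of 8 suffixes. Most of those other barcodes are not endothelial. Adgrl4 stands in the general endothelial list. Over suffixes it was 393 to 860 CPM in Rgcc-positive and 44.8 to 503 CPM in Plvap-positive barcodes, which overlapped. For the rest of these genes the levels in the other endothelial groups are not given.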
